A study of Drosophila melanogaster with 8 samples.

Results

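The data of 10 genes of the Notch signalling pathway were examined across the tissues of the fly larva. The genes were taken by name for their place in the pathway, and all 10 were found by symbol among the 12610 genes of the deposited matrix. They comprise the ligands *Delta* (*Dl*) and *Serrate* (*Ser*), the receptor *Notch* (*N*), the receptor modifier *fringe* (*fng*), the receptor protease *kuzbanian* (*kuz*), the nuclear genes *Su(H)*, *mastermind* (*mam*) and *Hairless* (*H*), and the regulators *neuralized* (*neur*) and *numb*. The study measured nuclear RNA of whole wandering larvae of the last instar (body) of the genotype *w1118* by single-nucleus RNA sequencing. Each of 8 samples was a pool of 16 larvae, 8 male and 8 female, aged 5 days from egg deposition, from which 1 droplet library was made. The labels put the 8 samples in 1 wild type group, so the libraries served as replicates and the comparisons were made between clusters of nuclei. Libraries are called replicate 1 to 8 by the number in their barcodes, which the files do not pair with sample names.

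Notch is a single-pass receptor that is activated by a ligand on the surface of a neighbouring cell. In the Golgi, Fringe adds N-acetylglucosamine to O-fucose on the receptor, which favours the response to Delta over that to Serrate. The ligand pulls on the receptor as it is endocytosed, a step for which the ubiquitin ligase Neuralized marks the ligand. Kuzbanian, the fly ADAM10 protease, then cuts the receptor, and gamma-secretase releases its intracellular part. In the nucleus this part joins the DNA-binding protein Su(H) and the coactivator Mastermind to activate targets such as the *Enhancer of split* genes, while Hairless holds Su(H) in a repressor complex. Numb blocks Notch in the daughter cell that inherits it after an asymmetric division. In the discs of late larvae the pathway is known for setting the wing margin, leg joints and vein borders and for selecting sensory organ precursors and photoreceptors.

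In the BDGP6.54 annotation *N* lies on the plus strand of chromosome X from 3134870 to 3172221. *Dl* (19302731 to 19326217, minus), *Ser* (27172090 to 27194267, minus), *H* (20621938 to 20628915, plus) and *neur* (9020348 to 9039471, minus) lie on arm 3R, and *fng* (20925891 to 20949512, minus) on 3L. Arm 2L holds *Su(H)* (15039488 to 15043334, plus), *kuz* (13550139 to 13639411, plus) and *numb* (9437469 to 9464184, plus), and arm 2R holds *mam* (13991203 to 14060356, plus). The members span from 3847 bases (*Su(H)*) to 89273 bases (*kuz*), and 7 of the 10 span at least 20 kb. Reads that fall in introns of a nuclear preparation can belong to a gene on the same strand inside a member. The genes of this kind in the matrix, *CG18371* within *mam* and *lncRNA:CR44973* within *kuz*, held 0.253% and 0.204% of the counts of their hosts.

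The matrix holds 30819 nuclei, 3090 to 5405 per library, with 3.82e+06 to 6.49e+06 corrected UMIs (unique molecular identifiers, each marking 1 RNA molecule) per library and a median of 804 to 1069 per nucleus. The authors placed the nuclei in 28 clusters and named 8 of them as mixed. Of fixed marker lists for the named tissues, the share of markers with their highest level in their own clusters was 7 of 8 for imaginal disc, 7 of 7 for eye disc, 4 of 4 for fat body and for hemocytes, 3 of 4 for enterocytes and for trachea, 4 of 6 for neurons, 3 of 5 for myoblasts and for gonad, 2 of 3 for intestinal stem cells and 2 of 4 for muscle. The summed neuron markers were highest in eye disc cluster 26 those of trachea and of intestinal stem cells in disc cluster 5 and those of myoblasts in hemocyte cluster 7, while the neuroblast markers peaked in neuron cluster 17. Libraries shared 584 barcodes, held by 2236 nuclei (7.26%), at 5.87% to 39.3% of the nuclei in mixed clusters and 0.16% to 13% in the other clusters.

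Levels are the summed counts of a gene over the nuclei of 1 cluster in 1 library, scaled to a common total of counts (CPM), for libraries with at least 10 nuclei in the cluster. A CPM of such a sum does not tell fewer nuclei with the RNA from less RNA per nucleus. Differences were tested with edgeR's quasi-likelihood test on the sums, adjusted by the Benjamini-Hochberg method over all genes tested, and a gene was called at an adjusted p below 0.05 and a log2 fold change of at least 0.54 in size. Clusters were built from the same counts, so these p-values tell only how far a difference stands above the spread between libraries. The libraries are pools of larvae of 1 group.

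The genes were mostly low in fat body and in the mixed clusters and were spread over the other 17 clusters in different ways. Against all other nuclei, the members were called lower in 107 of 110 tests over the 8 mixed and 3 fat body clusters, where 15.1% to 52.1% of all genes tested in a cluster were lower. The exceptions were *numb* in mixed cluster 19, at 252 CPM above 5 of the 17 other clusters (log2 -0.64, adjusted p = 0.169), and *Su(H)* and *neur* in mixed cluster 27, which has 3 libraries. Over the 28 clusters the members gave 52 higher calls (18.6%) and 150 lower calls (53.6%) in 280 tests. Over all genes, 14.7% of such tests were higher and 35.9% lower, so the share of higher calls was near the background and that of lower calls above it. With the 17 other clusters alone, each against the other 16 (chosen after seeing the data), members gave 30 higher calls (17.6%, background 13.8%) and 56 lower calls (32.9%, background 23.7%) in 170 tests. The median log2 fold change of all genes was -2.41 to -0.061 in the fits over 28 clusters and -1.02 to -0.00298 in those over 17, so fold changes are read relative to such shifts, and those given below against other nuclei come from the 17 clusters unless stated.

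**Figure D1:**
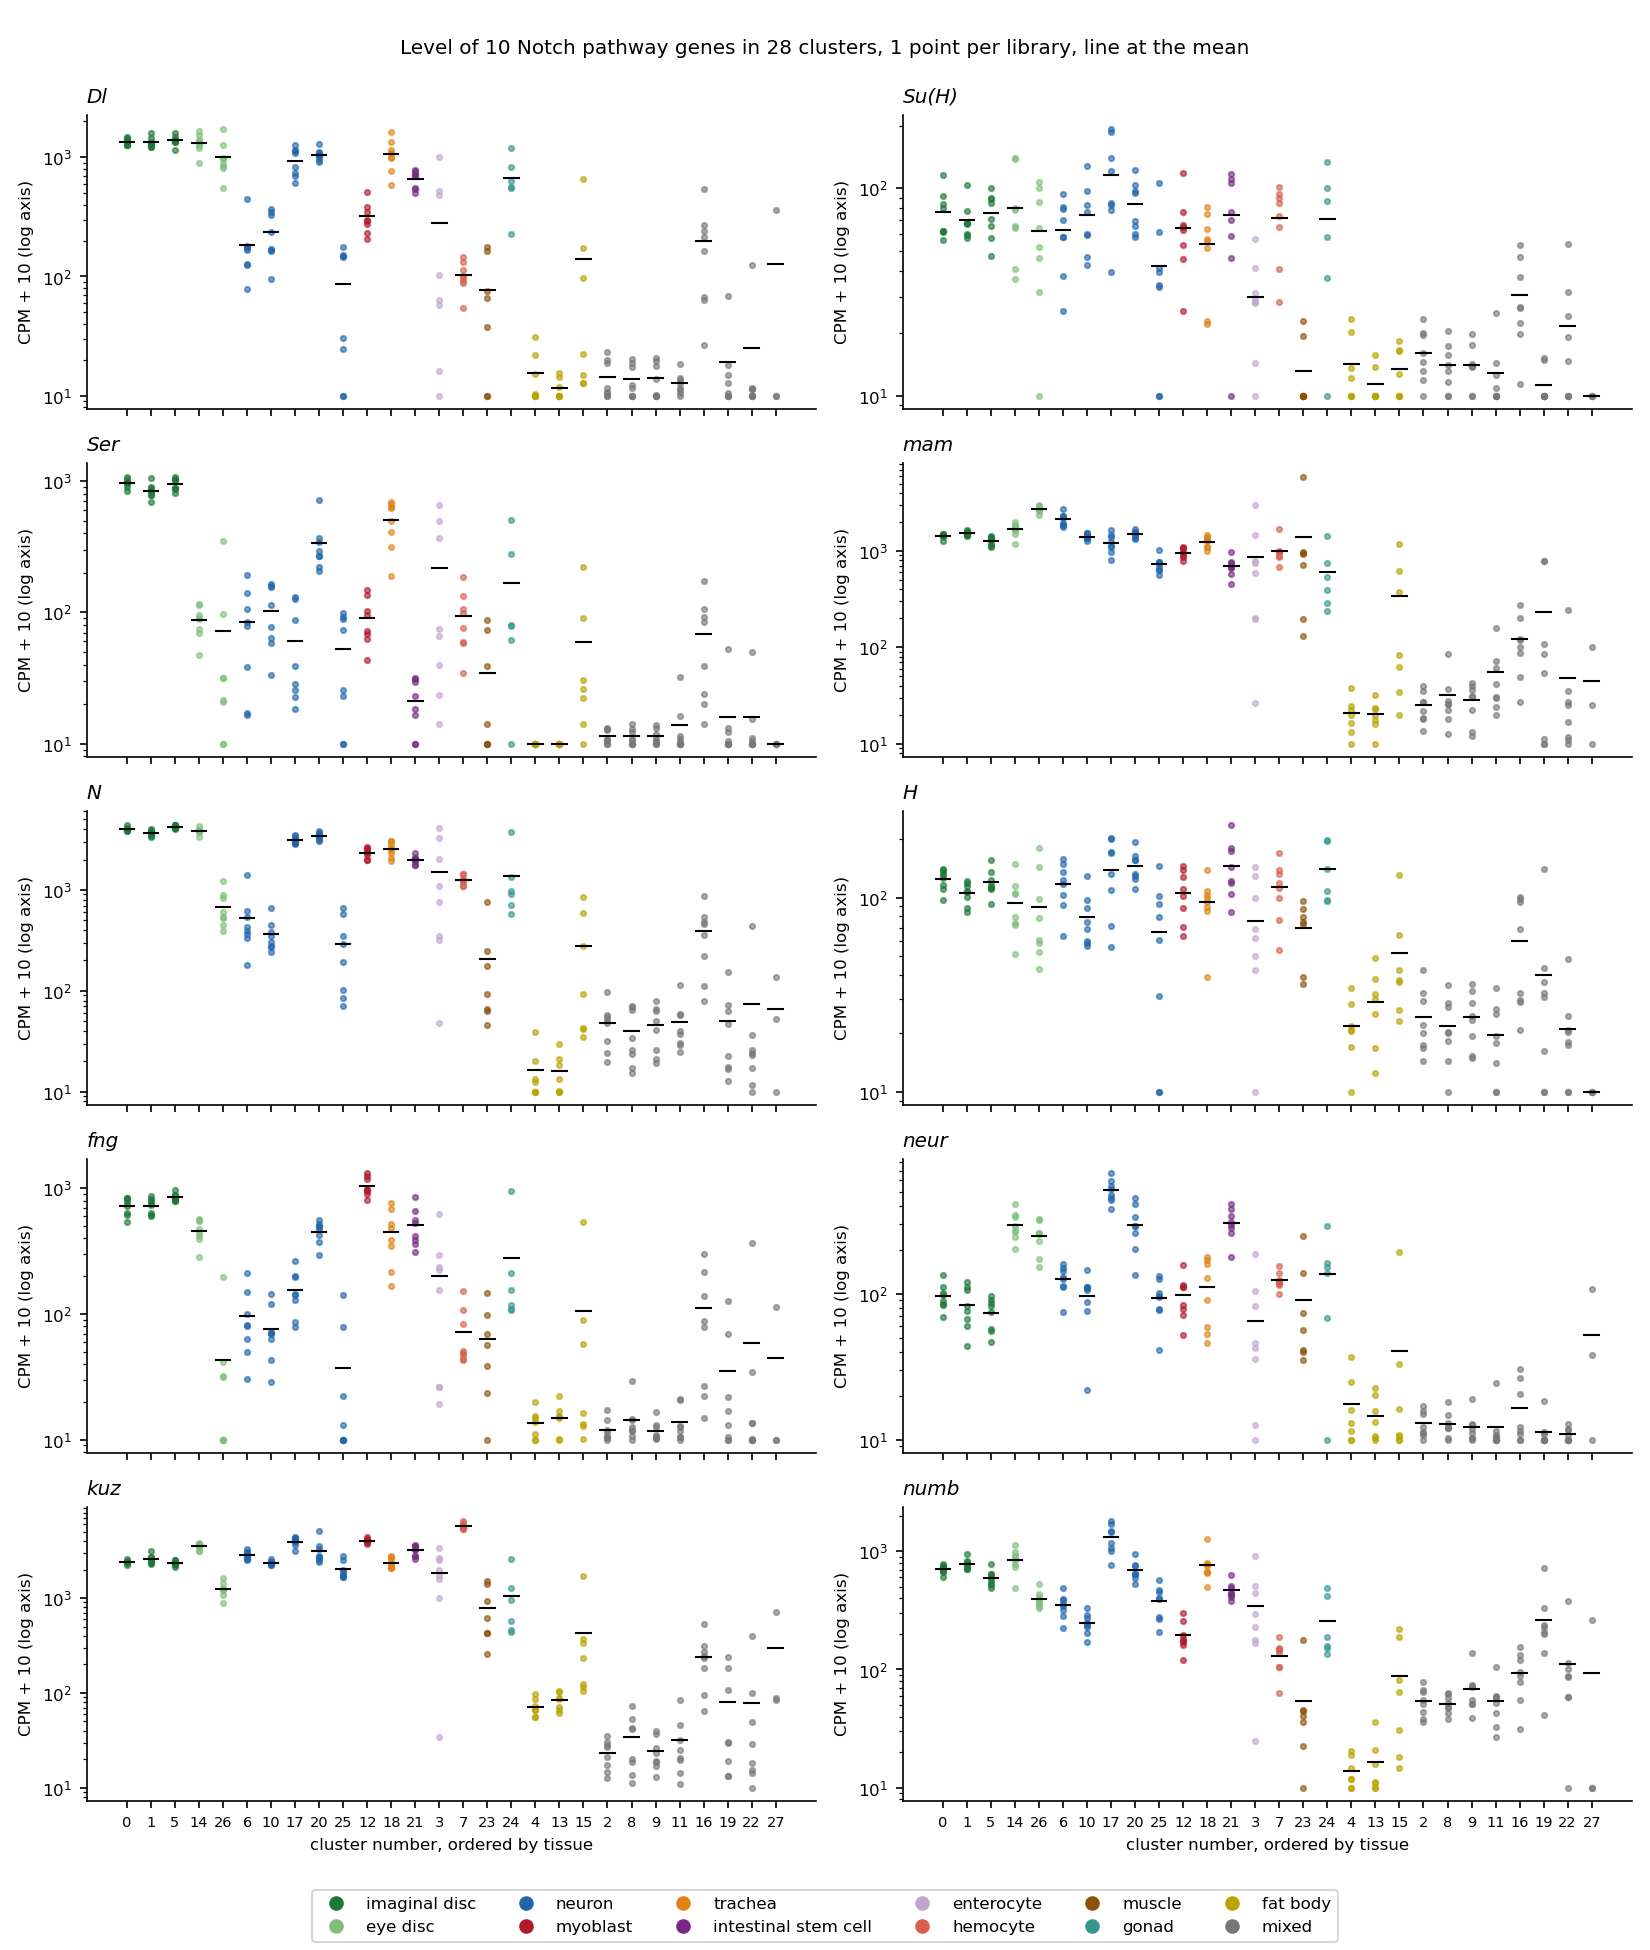
Level of each of the 10 Notch pathway genes in the 28 clusters, as CPM + 10 on a log axis. Each point is 1 library, each line the mean over libraries, and clusters are ordered and coloured by the authors' tissue names. The disc clusters 0, 1 and 5 lead for *Ser*, the hemocyte cluster 7 for *kuz* (5347 to 6550 CPM) and the neuron cluster 17 for *neur*, while fat body and mixed clusters are at the low end of most panels, with *numb* in mixed cluster 19 (mean 252 CPM) as an exception.

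The low levels in fat body and mixed clusters moved with the kind of RNA recovered there. Genes other than the members that span at least 20 kb (979 genes) took 1.35% to 8.17% of UMIs in the fat body clusters and 3.11% to 7.48% in the mixed clusters, against 22.4% to 61.9% in the other 17. *Su(H)* and *H*, the shortest members, were low in the same clusters, with mean levels of 0 to 20.5 CPM for *Su(H)* and 0 to 49.4 CPM for *H* in mixed clusters. The part of long-gene RNA and of shared barcodes in these low levels was not tested. Among the 17 clusters, *N* was at 4208 CPM in disc cluster 5 (long-gene share 51.8%) and at 282 CPM in neuron cluster 25 (61.9%).

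**Figure D2:**
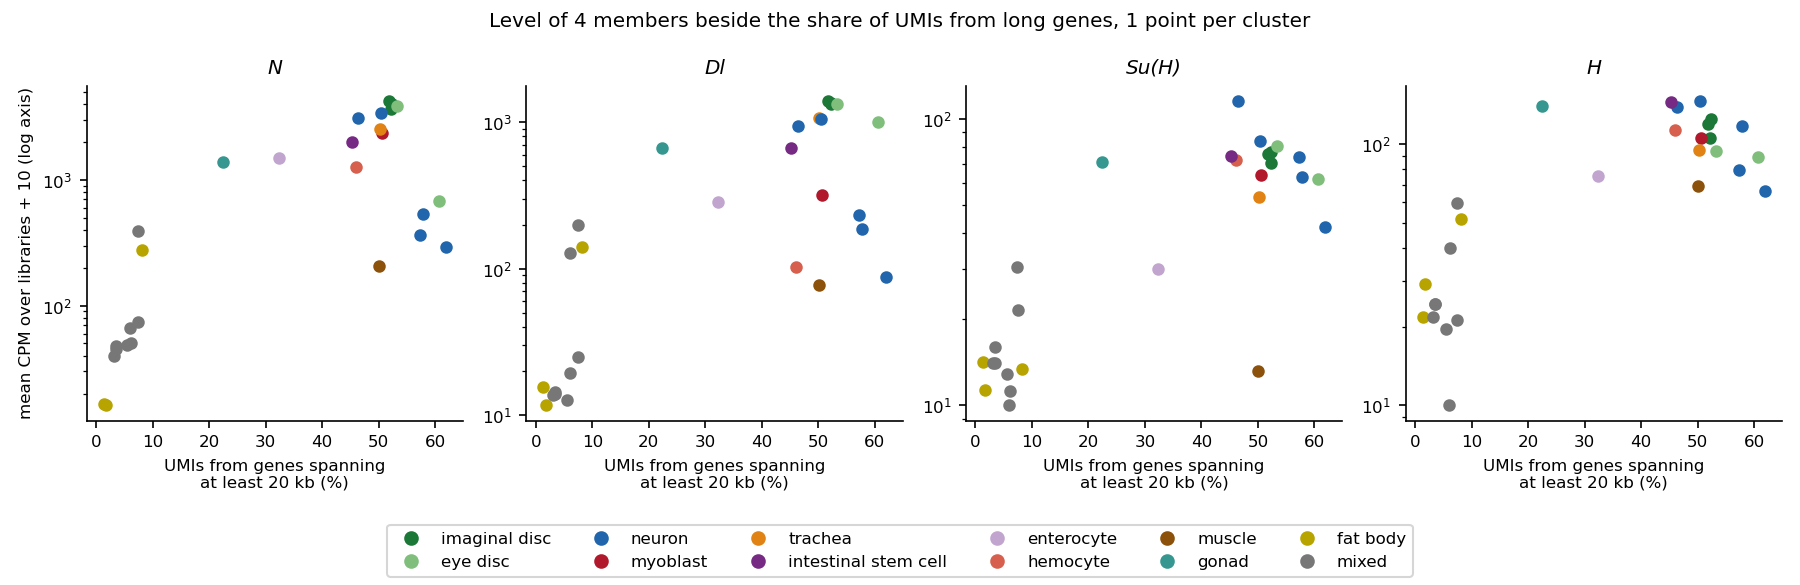
Mean level of *N*, *Dl*, *Su(H)* and *H* (CPM + 10, log axis) against the mean share of UMIs from genes that span at least 20 kb (%). Each point is 1 of 28 clusters, coloured by tissue. Fat body and mixed clusters lie at the lower left of each panel, at shares of 1.35% to 8.17%, and the other 17 clusters at 22.4% to 61.9% show a wide range of levels.

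Both ligands were high in the disc epithelium, and *Ser* was called lower in each cluster where *Dl* was. They parted in eye disc clusters 14 and 26 and neuron cluster 17, where only *Ser* was called lower. *Dl* was highest in disc cluster 5, with 1153, 1376 and 1599 CPM as the lowest, median and highest library. It was nearly as high in disc clusters 0 (1345 ± 87.7, SD, n = 8) and 1 (1329 ± 128) and in eye disc cluster 14 (1316 ± 228). The 8 clusters whose *Dl* levels overlapped those of cluster 5 also included trachea cluster 18 (1061 ± 326), neuron cluster 20 (mean 1044), eye disc cluster 26 (994 ± 359), neuron cluster 17 (929 ± 247) and the gonad. *Dl* was called higher in clusters 0, 1, 5 and 14, by 0.75 to 0.88 on the log2 scale (in cluster 0 by 0.88, SE 0.0948, adjusted p = 5.16e-07). Hemocytes, myoblasts, larval muscle, intestinal stem cells, enterocytes, the gonad and neuron clusters 6, 10 and 25 were called lower. In the fits over 28 clusters enterocytes (-1.56, adjusted p = 0.1), the gonad (-0.64, adjusted p = 0.119) and intestinal stem cells (-0.21, adjusted p = 0.34) were not called. Replicate 4 gave 1508 of the 2055 enterocyte nuclei.

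*Ser* had its high levels in the discs. Disc cluster 0 held 829, 972 and 1071 CPM as the lowest, median and highest library, and only the disc clusters 5 and 1 overlapped it, while every library of the 25 other clusters was lower. Trachea followed with 178, 554 and 688 CPM and neuron cluster 20 with 198, 270.4 and 710 CPM. *Ser* was called higher in clusters 0, 5 and 1, by 1.47 (SE 0.125, adjusted p = 2.59e-08), 1.22 and 1.18, and lower in 12 clusters. In eye disc cluster 14, where *Dl* was at its disc level, *Ser* was at 37.7, 80.1 and 105 CPM and was called lower by 2.51 on the log2 scale (SE 0.175, adjusted p = 1.63e-09). Intestinal stem cells had the lowest mean *Ser* level of the 17 clusters, 11.2 CPM, beside 652 CPM of *Dl*.

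*N*, the receptor of both ligands, was highest in disc and eye disc clusters and differed between neuron clusters. Disc cluster 5 held 4031, 4144 and 4420 CPM, and the libraries of disc cluster 0, eye disc cluster 14 and enterocyte cluster 3 overlapped it. *N* was called higher in clusters 0, 1, 5 and 14, by 0.70 to 0.87 (in cluster 5 by 0.84, SE 0.0872, adjusted p = 3.96e-07). The neuron clusters split in *N*. *N* was at 3406 ± 270.2 CPM in cluster 20 and 3118 ± 239 in cluster 17, and at 522 ± 378, 356 ± 134 and 282 ± 226 in clusters 6, 10 and 25, with no overlap of libraries between these sets. Clusters 6, 10 and 25 were called lower by 2.17, 2.72 and 3.17 on the log2 scale, and eye disc cluster 26 by 1.87. Intestinal stem cells (by 0.61, adjusted p = 0.000105), hemocytes, the gonad and larval muscle (mean 197 CPM) were called lower too, and myoblasts (-0.20) and trachea (0.06) were not called. Of the neuron markers, the synaptic gene *brp* was at 36.3 CPM in cluster 17 and 122 in cluster 20, against 2954, 1301 and 1801 in clusters 6, 10 and 25. The pan-neuronal gene *elav* was at 1272 and 333 CPM in clusters 17 and 20, against 1032, 852 and 518, and the part of these differences in the *N* levels was not tested.

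*fng*, the glycosyltransferase that modifies the receptor, was the only member with its highest level in myoblasts. The cluster that the authors named as myoblasts (cluster 12) held 796, 975 and 1323 CPM, overlapping the disc clusters 5, 1 and 0, intestinal stem cells and the gonad. *fng* was called higher in cluster 12 by 1.18 (SE 0.142, adjusted p = 2.08e-06) and in disc clusters 5, 1 and 0 by 0.97, 0.83 and 0.78. In eye disc cluster 26 it was at 0, 10.7 and 188 CPM and in neuron cluster 25 at 0, 1.55 and 132 CPM, the lowest levels among the eye disc and the neuron clusters.

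*kuz*, the protease that makes the first ligand-dependent cut in the receptor, peaked in hemocytes. Cluster 7 held 5347, 5674 and 6550 CPM, above every library of the 27 other clusters, and was called higher by 1.19 (SE 0.083, adjusted p = 8.22e-10). Myoblasts came next, at 3708, 3976 and 4439 CPM, and were called higher by 0.55. Hemocytes were low in the ligands, the receptor and its modifier: *Dl*, *Ser* and *fng* were called lower there, and *N*, at 1083, 1243 and 1438 CPM, was called lower by 1.16 (SE 0.108, adjusted p = 3.32e-08). The mean *kuz* level lay between 2013 and 5774 CPM in each of the 3 disc clusters, the 5 neuron clusters, trachea, myoblasts, intestinal stem cells, hemocytes and eye disc cluster 14.

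Of the nuclear members, *Su(H)* and *H* overlapped widely between clusters. *Su(H)*, which binds the DNA of target genes, was sparse, with 1426 corrected counts in all nuclei beside 5.86e+04 of *N*. It was highest in neuron cluster 17 at 29.3, 92.4 and 183 CPM, a range that overlapped 17 other clusters, and was called higher only there (0.90, SE 0.245, adjusted p = 0.00496). Enterocytes and larval muscle were called lower. *H*, the corepressor that binds Su(H), showed no called higher cluster among the 17, and its highest cluster, neuron cluster 20 (100.5, 134 and 183 CPM), overlapped 17 others. Against all other nuclei of the 28 clusters *H* was called higher in cluster 20 by 0.66 (SE 0.154, adjusted p = 0.00237), and among the 17 the value was 0.50 (adjusted p = 0.0119), under the fold limit. *mam*, the coactivator, was called higher in eye disc cluster 26 (2351, 2664 and 3000 CPM, by 1.23, SE 0.126, adjusted p = 7.73e-08) and in neuron cluster 6 (1775, 2047 and 2737 CPM, by 0.99). Libraries of these clusters overlapped each other, and a single library each of larval muscle (5898 CPM, 22 nuclei) and of enterocytes (2985 CPM) reached the same levels. Intestinal stem cells, the gonad and neuron cluster 25 were called lower in *mam*.

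The regulators *neur* and *numb*, both known from asymmetric division of neural precursors, shared their highest cluster, neuron cluster 17. *neur* was at 372, 490.1 and 667 CPM there, overlapping only intestinal stem cells (168, 293 and 400 CPM), neuron cluster 20 (126, 282 and 446 CPM) and eye disc cluster 14 (194, 272 and 402 CPM). It was called higher in cluster 17 by 2.06 (SE 0.158, adjusted p = 4.2e-09) and in clusters 14, 20, 26 and 21 by 1.20 to 1.47, and lower in disc clusters 1 and 5, enterocytes and larval muscle. *numb* was at 761, 1305 and 1800 CPM in cluster 17 and was called higher there by 1.22 (SE 0.151, adjusted p = 1.94e-06), in eye disc cluster 14 by 0.81, in disc clusters 1 and 0 by 0.78 and 0.55 and in trachea by 0.69. It was called lower in myoblasts, hemocytes, neuron cluster 10, larval muscle and the gonad. In cluster 17 the neuroblast genes *dpn* (119 CPM), *wor* (56.6), *ase* (87.6), *mira* (132) and *insc* (99.3) were above their levels in the other 4 neuron clusters, where no mean passed 27.3 CPM. The synaptic neuron markers *nSyb*, *brp*, *Syt1* and *para* were lower in this cluster than in neuron clusters 6, 10 and 25, while *elav* was at its highest neuron level there (1272 CPM) and *fne* at 383 CPM was above cluster 20 (240 CPM). The part of neuroblast nuclei in the *neur* and *numb* levels was not tested.

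In the list of trafficking genes *spdo*, a Notch partner needed in asymmetric division, and *pon*, which helps to place Numb, had their highest levels there, at 142 and 109 CPM, and were called higher against all other nuclei by 5.05 (SE 0.286, adjusted p = 9.79e-11) and 3.07 (SE 0.265, adjusted p = 2.25e-08). Of the list of 11 genes of ligand and receptor trafficking, 2 were called higher and 1 lower in this cluster, with a list median of -0.00 beside -0.87 for all genes. Of all genes tested in cluster 17, 11.3% were higher and 42.7% lower, so the count of higher genes is near the background. Of 6 nuclear complex and corepressor genes, 4 were called higher and 0 lower, among them the corepressor *gro* by 0.96 and the Mediator subunit *skd* by 0.85 (list median 0.77).

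The order of levels was tested between neighbours. For each member the clusters were put in the order of their mean CPM, and each was compared with the next by an exact paired permutation test over libraries (2-sided). The order was taken from the same libraries, so the direction of a difference was largely set before the test. Of 251 neighbouring pairs, 0 passed after adjustment (smallest adjusted p = 0.327), although 27 had an unadjusted p below 0.05 and 6 reached 0.00781, the smallest p that 8 libraries can give. With this smallest p and 251 pairs, 6 pairs at the limit could not pass the adjustment, so the adjusted values say little about whether neighbours differ. These 6 were *N* in disc cluster 5 above disc cluster 0, *Ser* in disc cluster 1 above trachea, *neur* in neuron cluster 17 above intestinal stem cells, *mam* in neuron cluster 6 above eye disc cluster 14, *kuz* in hemocytes above myoblasts and *numb* in disc cluster 5 above intestinal stem cells, each in 8 of 8 libraries. The differences ranged from 0.06 (*N*) to 0.85 (*Ser*) on the log2(CPM + 10) scale.

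Single nuclei showed the same spread when each was thinned to 300 UMIs, which left out 1177 shallower nuclei. *N* was found in 63.8% to 68.6% of the nuclei of the 3 disc clusters and in 46.8% and 45.8% of those of myoblasts and intestinal stem cells. It was found in 5.42% to 8.59% in neuron clusters 6, 10 and 25 and in 0.127% in fat body cluster 4. Fat body cluster 4 is no neutral background, as it had the lowest share of UMIs from long genes (1.35%), which thinning does not even out. Before thinning, *N* was found in 94.8% of nuclei of disc cluster 0 (median 1071 UMIs) and 3.37% of those of fat body cluster 4 (median 594 UMIs). *Dl* was found in 28.2% to 29.5% of thinned disc nuclei and *Ser* in 18.5% to 21.1%, with 0.127% and 0.0633% in fat body cluster 4. *kuz* was found in 73.2% of hemocytes, *mam* in 51.3% of nuclei of eye disc cluster 26, *fng* in 22.6% of myoblasts and *neur* in 13.7% of nuclei of neuron cluster 17, where fat body cluster 4 gave 2.09%, 0.379%, 0 and 0.253%. Elsewhere among the 17 clusters *kuz* ranged from 4.97% in enterocytes to 66.6% in neuron cluster 17. The enterocyte share pools libraries of uneven size, with 1508 of 2055 nuclei from replicate 4. Its mean over 8 libraries was 24.45% (SD 16.26).

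Disc nuclei (8386) were compared with neurons (4080). Both ligands, the receptor and *fng* were higher in the sums of disc clusters 0, 1 and 5 than in those of the 5 neuron clusters, and *neur* was lower. Of the 10 members tested, 4 were higher and 1 lower, where 20.1% and 18.4% of the 4901 genes tested were higher and lower. *Ser* was at 801, 910.1 and 1006 CPM in discs and 39.6, 131 and 214 in neurons, without overlap, a log2 difference of 2.76 (SE 0.192, adjusted p = 2.2e-10). *fng* was at 649, 745 and 837 CPM against 85.3, 162 and 217, without overlap (2.15, SE 0.142, adjusted p = 1.01e-10). *Dl* (1331 against 480.2 CPM, medians) and *N* (3936 against 1407 CPM) did not overlap either, with 1.51 (SE 0.107) and 1.45 (SE 0.0741). *neur* was at 51.2, 76.5 and 113 CPM in discs and 130, 184 and 264 in neurons and was lower by 1.36 on the log2 scale (SE 0.149, adjusted p = 1.63e-07), without overlap. The downstream members *Su(H)* (-0.13 ± 0.13, SE), *H* (-0.01 ± 0.08), *mam* (-0.17 ± 0.08) and *kuz* (-0.25 ± 0.07) and the regulator *numb* (0.41 ± 0.08) were not called, the last 2 because they lay under the fold limit with adjusted p of 0.00311 and 0.000129. The neuron sums mix the clusters of high and of low *N* described above. Mean *neur* was 63.7 to 86.7 CPM in the disc clusters and 83.7, 86.2 and 116 in neuron clusters 25, 10 and 6. Neuron clusters 20 and 17 held 288 and 502 CPM of *neur*.

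**Figure D3:**
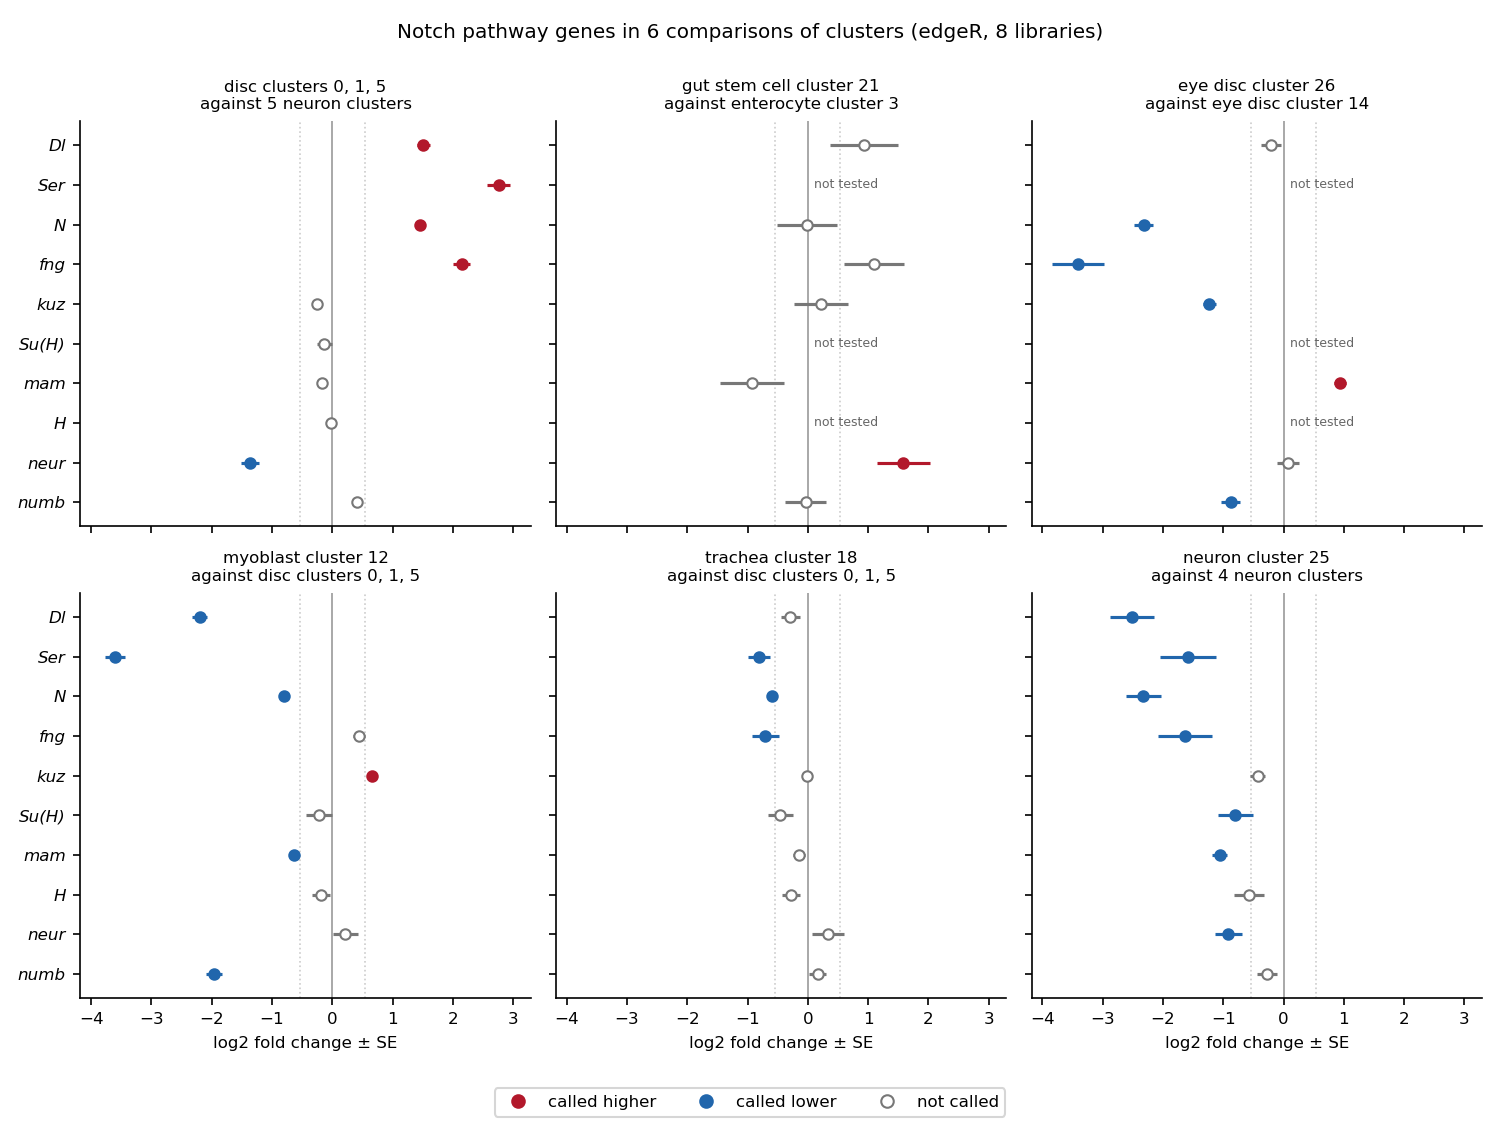
Log2 fold change (x axis, ± SE) of the 10 Notch pathway genes in 6 comparisons between clusters, from edgeR with 8 libraries. Filled points passed the adjusted p and the fold limit (dotted lines at 0.54 on either side), open points did not. The ligands, *N* and *fng* lie to the right for discs against neurons and to the left for neuron cluster 25, and *mam* and *N* lie on opposite sides in eye disc cluster 26.

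Targets of the pathway moved in more than 1 direction in the same comparison. Of 5 *Enhancer of split* bHLH repressor genes tested, *E(spl)mbeta-HLH* (median 282 against 74.2 CPM, log2 1.71, SE 0.158) and *E(spl)m3-HLH* (1.16, SE 0.24) were higher in discs, and *E(spl)mgamma-HLH* (11.2 against 83.1 CPM) was lower by 3.10 on the log2 scale. In the Bearded family, small inhibitors of Neuralized, 4 of 6 genes tested were higher in discs and 1 lower, with a list median of 0.96 beside 0.02 for all genes. *E(spl)malpha-BFM* (154 against 41.0 CPM) was higher by 1.90 and *E(spl)m4-BFM* (41.6 against 71.9 CPM) lower by 0.78. The proneural and sensory precursor genes *scrt* and *phyl* were lower in discs by 5.92 and 3.51, and of 5 genes of glycosylation and processing the furin gene *Fur1* (0.64) and the ADAM10-like gene *Kul* (0.60) were higher. In the trafficking list *dx* was higher (0.74) and the epsin gene *lqf*, needed for ligand endocytosis, lower (by 0.74), and no nuclear complex gene of 5 tested was called.

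The eye disc clusters differed in the receptor and its modifier and not measurably in *Dl*. Cluster 26 held more RNA of *gl*, a transcription factor of photoreceptors (905 against 622 CPM in cluster 14), and of the neuronal genes *elav* (1398 against 299) and *brp* (6831 against 18.8). *N* was at 382, 564 and 1213 CPM in cluster 26 and 3302, 3898 and 4258 in cluster 14, without overlap, and was lower by 2.32 on the log2 scale (SE 0.157, adjusted p = 3.05e-11). *fng* was at 0, 10.7 and 188 CPM against 276, 446 and 560 and was lower by 3.41 (SE 0.428, adjusted p = 4.14e-07), also without overlap. *kuz* (1226 against 3606 CPM, medians) was lower by 1.23 (SE 0.102) and *numb* (364 against 865) by 0.88 (SE 0.161), while *mam* was higher, at 2351, 2664 and 3000 CPM against 1185, 1711 and 1997 (0.94, SE 0.0992, adjusted p = 2.87e-08). *Dl* gave -0.21 ± 0.17 (SE, adjusted p = 0.328) and *neur* 0.07 ± 0.18 (adjusted p = 0.776), with overlapping libraries. *Ser*, *Su(H)* and *H* did not pass the filter on low counts. Of 7 members tested, 1 was higher and 4 lower, beside 24.9% and 24.2% of the 1336 genes tested. With libraries of at least 30 nuclei on each side alone, *Dl* passed the test at -0.56 (adjusted p = 0.00228).

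Of 8 Bearded family genes listed, 4 passed the filter on low counts, and all 4 were lower in cluster 26. *Brd*, *Tom* and *E(spl)m4-BFM*, near 0 in cluster 26, passed the filter through their counts in cluster 14. The count of lower genes and the list median are therefore largely fixed by the filter and say little about the family. *Brd* was at 0 to 22 CPM against 258 to 487 in cluster 14 and was lower by 5.01 on the log2 scale (SE 0.362), and *Tom* by 4.03 (SE 0.351). *E(spl)m4-BFM* had no count in the 8 libraries of cluster 26 and 402 corrected counts in cluster 14, which is at least 74-fold lower when 3 counts over the group are taken as the floor. The list median was -4.52, also with this gene at its bound, beside -0.02 for all genes. *E(spl)mgamma-HLH* (0 to 777 against 174 to 788 CPM) and *E(spl)mbeta-HLH* (0 to 143 against 93.4 to 225 CPM) were lower by 1.65 and 1.43. Their ranges overlapped, and each was higher in cluster 26 in 1 of 8 libraries. The zinc finger gene *scrt* was higher by 3.10 (2514 to 3549 against 176 to 635 CPM), and so were *lqf* (1.33) and the ubiquitin ligase gene *Nedd4* (0.78). *Fur1* was lower by 2.38, and none of 4 nuclear complex genes was called.

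Myoblasts lie on the basal side of the wing disc epithelium, and their members were compared with those of the 3 disc clusters. Both ligands were lower in myoblasts, the receptor less so, and *kuz* was higher. *Ser* was at 33.1, 73.9 and 137 CPM against 801, 910.1 and 1006 in discs and was lower by 3.6 on the log2 scale (SE 0.164, adjusted p = 2.55e-13). *Dl* was at 197, 284 and 505 CPM against 1272, 1331 and 1450 and was lower by 2.20 (SE 0.13, adjusted p = 1.16e-11). *N* was at 1947, 2357 and 2655 CPM against 3686, 3936 and 4160 and was lower by 0.80 (SE 0.07, adjusted p = 4.78e-09), so none of these overlapped. *numb* was lower by 1.96 (SE 0.128) and *mam* by 0.63 (SE 0.0738). *kuz*, at 3708 to 4439 against 2269 to 2792 CPM, was higher by 0.66 (SE 0.0544, adjusted p = 1.88e-09). *fng* was above the disc level in 8 of 8 libraries but under the fold limit (0.44 ± 0.10, SE, adjusted p = 0.00186). *Su(H)* (-0.22 ± 0.21), *H* (-0.19 ± 0.15) and *neur* (0.21 ± 0.21) were not called. Of the 10 members, 1 was higher and 5 lower, beside 13.4% and 14.4% of 3743 genes tested. Without the filter on low counts the *kuz* difference was 0.43, under the fold limit.

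Of 8 Bearded family genes listed, 5 were tested and all 5 were lower in myoblasts (list median -2.54 beside 0.03 for all genes). *Tom* was lower by 3.73 and *E(spl)malpha-BFM* by 3.25, at medians of 3.37 and 9.69 CPM in myoblasts. Such genes passed the filter on low counts through the disc sums, so the count and the list median are partly fixed by the filter. Of 4 *Enhancer of split* bHLH genes tested, *E(spl)m8-HLH* was lower by 2.5. *Kul* was lower by 3.53 (0 to 32.2 against 97.5 to 157 CPM) and *Fur1* by 0.63, *lqf* was higher by 1.27 and the ubiquitin ligase gene *Su(dx)*, which limits Notch, was lower by 0.67.

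Trachea, another epithelium, was compared with the same disc sums, so this comparison and that of myoblasts share a side. *N*, *Ser* and *fng* were lower in trachea, and the other members were not called. Shared barcodes were held by 6.11% of the tracheal nuclei. *Ser* was at 178, 554 and 688 CPM against 801, 910.1 and 1006 in discs, without overlap, and was lower by 0.81 on the log2 scale (SE 0.184, adjusted p = 0.00172). *N* was at 1915, 2539 and 3060 CPM against 3686, 3936 and 4160, without overlap, and was lower by 0.59 (SE 0.0879, adjusted p = 2.77e-05). *fng* was at 156, 426 and 760 CPM against 649, 745 and 837, with overlap, and was lower by 0.70 (SE 0.221, adjusted p = 0.0178). *Dl* gave -0.29 ± 0.15 (SE), *Su(H)* -0.46 ± 0.21, *H* -0.28 ± 0.15, *mam* -0.15 ± 0.10, *kuz* -0.01 ± 0.07, *neur* 0.33 ± 0.26 and *numb* 0.17 ± 0.14, with no call. Of the 10 members, 0 were higher and 3 lower, beside 14.4% and 12.5% of 3713 genes tested, and at an unadjusted p below 0.05 there was no higher member either. The call of *N* was lost without any of replicates 1, 4, 5 and 8 and with barcodes of 1 library only (-0.49 to -0.54, under the fold limit), and that of *fng* without replicate 5, 6 or 8 (adjusted p = 0.0985, 0.0541 and 0.0871).

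In the trachea 4 of 5 Bearded family genes tested were lower than in discs (list median -2.0), among them *Tom* by 2.94 and *Brd* by 2.0. These 2 genes were at medians of 7.33 and 7.04 CPM in trachea and passed the filter on low counts through the disc sums. The count and the list median are therefore partly fixed by the filter here too. *E(spl)m8-HLH* and *E(spl)m7-HLH* were lower by 2.64 and 1.49 and *E(spl)mbeta-HLH*, at 284 to 590 against 236 to 316 CPM, was higher by 0.64. The corepressor genes *CtBP* and *gro* were lower by 0.69 and 0.62, *Fur1* was lower by 0.69 and *lqf* higher by 0.95.

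Intestinal stem cells were compared with enterocytes because *Dl* marks the stem cells of the adult fly gut. Among the 7 members tested only *neur* was called, at 168, 293 and 400 CPM in cluster 21 against 0, 34.3 and 179 in enterocytes (log2 1.58, SE 0.44, adjusted p = 0.00651), higher in 8 of 8 libraries although the ranges overlap. *Dl* was at 495, 695 and 777 CPM in stem cells and 0, 72.9 and 1005 in enterocytes, higher in 7 of 8 libraries, with a difference of 0.93 ± 0.56 (SE) that did not pass (adjusted p = 0.195). With the library as a block *Dl* passed at 1.58 (adjusted p = 0.0345), and without replicate 3 at 1.47 (adjusted p = 0.0449). *fng* gave 1.10 ± 0.49 (adjusted p = 0.0777) and passed under DESeq2 (1.10, adjusted p = 0.0442), without the filter on low counts, with at least 30 nuclei and without replicate 3. *N* (-0.02 ± 0.49), *mam* (-0.93 ± 0.54), *kuz* (0.22 ± 0.44) and *numb* (-0.04 ± 0.34) were not called. Of 1208 genes tested, 16.6% were higher and 27.9% lower. The *mam* difference was -0.18 ± 0.52 with the block.

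The enterocyte side was uneven across libraries, and its part in the values above was not tested. Replicate 4 gave 1508 of the 2055 enterocyte nuclei, and *N* was at 37.8 CPM there and at up to 4065 CPM in another library. The share of UMIs from long genes ranged from 3.89% to 49.99% among the libraries of the cluster. Of the pathway lists, *Fur1* (13.4 to 438 against 31.9 to 2760 CPM) was lower in stem cells by 4.20 on the log2 scale. *lqf* (411 to 757 against 325 to 1752 CPM, with overlap) was lower by 1.46 in the fit but higher in stem cells in 4 of 8 libraries.

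Neuron cluster 25 was compared with the other 4 neuron clusters because it holds most RNA of the sodium channel gene *para*, at 4466 CPM beside 6.8 to 383. The ligands, the receptor, *fng*, *neur*, *mam* and *Su(H)* were all lower there. The 4 clusters pool 17 and 20, high in *N* (3118 and 3406 CPM), with 6 and 10, which are low (522 and 356 CPM). Among the 17 clusters *N*, *Dl*, *Ser* and *fng* were called lower in clusters 6 and 10 as well as in cluster 25. Low levels of these 4 genes are thus not particular to cluster 25. Nor is that of *neur*, with means of 83.7 CPM in cluster 25, 86.2 in cluster 10 and 116 in cluster 6. Clusters 17 and 20 held 502 and 288 CPM of *neur*. *N* was at 61.3, 234 and 646 CPM against 1170, 1515 and 1905 and was lower by 2.33 on the log2 scale (SE 0.291, adjusted p = 8.17e-07). *Dl* was at 0, 77.8 and 168 CPM against 284, 495 and 659 and was lower by 2.52 (SE 0.364, adjusted p = 5.56e-06). *mam* (702 against 1630 CPM, medians) was lower by 1.06 (SE 0.12), and the libraries of *N*, *Dl*, *mam* and *neur* (85.9 against 199 CPM, lower by 0.92, SE 0.227) did not overlap. *fng* and *Ser* were lower by 1.63 (SE 0.45) and 1.59 (SE 0.463), with overlap. *Su(H)* was at 0, 26.9 and 95.3 CPM against 52.5, 66.9 and 97.8 and was lower by 0.80 (SE 0.293, adjusted p = 0.0282), a call lost with the library as a block (-0.72, adjusted p = 0.0981), with at least 30 nuclei and without replicate 1, 3, 6, 7 or 8. *numb* (-0.27 ± 0.17), *H* (-0.58 ± 0.25, adjusted p = 0.059) and *kuz* (-0.43 ± 0.12, under the fold limit) were not called. *H* and *kuz* passed with the size factors of DESeq2 (-0.76 and -0.57) and in DESeq2 itself, and both and *numb* without the filter on low counts. Of the 10 members, 0 were higher and 7 lower, beside 22.2% and 23.5% of 2252 genes tested, and none was higher at an unadjusted p below 0.05.

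All 4 nuclear complex genes tested were lower in cluster 25 (list median -0.73 beside -0.09 for all genes), with *CtBP* lower by 0.98 (SE 0.118), *gro* by 0.78 and *skd* by 0.68. *E(spl)mgamma-HLH* was at 0 to 23.8 CPM against 83.5 to 142 and was lower by 3.71. *E(spl)m4-BFM*, at 0 to 192 against 50.3 to 92.7 CPM, was lower by 2.63 but higher in 1 of 8 libraries. These 2 genes, at medians of 0 and 2.54 CPM in cluster 25, passed the filter on low counts through the other neuron clusters. *Kul* and *lqf* were higher by 0.96 and 0.66.

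Nuclei that held RNA of 1 ligand were compared with nuclei that did not, to see whether the ligands occur in the same nuclei of the disc epithelium. At 300 UMIs per nucleus, *Ser* was found in 29.04% of nuclei with *Dl* and 15.7% of nuclei without it in disc cluster 0, a difference of 13.3 ± 5.07 percentage points (SD, n = 8 libraries). In cluster 5 the shares were 28.1% and 18.4% (9.70 ± 5.37), and in cluster 1 they were 23.9% and 16.1% (7.81 ± 3.86). The difference was positive in 8 of 8 libraries of each cluster (exact paired permutation test, 2-sided, p = 0.00781, the smallest that 8 libraries can give, adjusted p = 0.0352 over 18 tests). *Ser* and *fng* were found together more often in cluster 1 (20.7% of nuclei with *Ser* and 14.9% without it, 5.86 ± 5.01, adjusted p = 0.0352), but the differences in clusters 0 and 5 were 0.893 ± 3.64 and 1.61 ± 6.63 and did not pass (adjusted p = 0.762 in both).

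**Figure D4:**
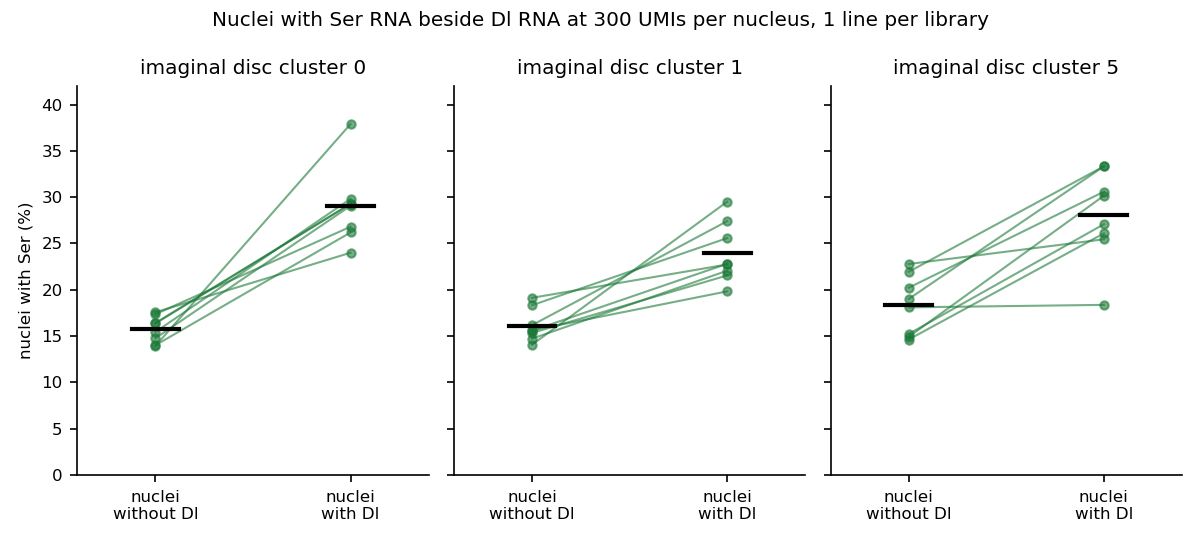
Share of nuclei with *Ser* RNA (%) among nuclei without and with *Dl* RNA in disc clusters 0, 1 and 5, each nucleus thinned to 300 UMIs. Each line is 1 of 8 libraries and each black bar the mean. The mean rises from 15.7% to 29.04% in cluster 0, from 16.1% to 23.9% in cluster 1 and from 18.4% to 28.1% in cluster 5.

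In eye disc cluster 14 the direction for the ligands changed with depth and was not called: at 300 UMIs *Ser* was found in 0.379% of nuclei with *Dl* (1 nucleus with both) and 2.81% of those without (difference -2.43 ± 2.49, adjusted p = 0.121), and at 500 UMIs in 5.70% and 2.22% (3.48 ± 4.37, adjusted p = 0.185). *neur* was found in 8.75% of nuclei with *Dl* and 4.87% without in that cluster (3.88 ± 6.43, higher in 7 of 8 libraries, adjusted p = 0.0563). This pair passed at 500 UMIs (10.4 ± 8.37, adjusted p = 0.0469) and without thinning (15.2 ± 9.72, adjusted p = 0.0225). The receptor and *Dl* were found together in disc cluster 0 at 31.2% against 26.1% (5.08 ± 4.09, adjusted p = 0.0703), with differences of 0.40 ± 4.15 and 1.43 ± 5.25 in clusters 1 and 5. At 500 UMIs the difference was 3.13 ± 9.54 in cluster 0 (adjusted p = 0.502) and 5.33 ± 1.77 in cluster 1, where it passed (8 of 8 libraries, adjusted p = 0.0328). Of the 18 tests, 4 passed and 7 had an unadjusted p below 0.05. With nuclei thinned to 500 UMIs 7 of 21 tests passed, and without thinning 13 of 23, so the count and the pairs that pass depend on the depth. Nuclei of a cluster can differ in disc region, and disc regions were not separated here.

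Across clusters the members resembled each other less once the clusters of low long-gene RNA were set aside. Over 28 clusters the Pearson r of log2(mean CPM + 10) between members was 0.57 to 0.94 (median 0.83 over 45 pairs), highest for *N* and *Dl*. Over the 17 clusters without mixed and fat body nuclei it was -0.42 (*Ser* and *neur*) to 0.85 (*N* and *fng*), with a median of 0.42 and 6 pairs below 0. The clusters share libraries, and clusters of 1 tissue resemble each other, so these values describe the clusters and carry no p.

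Of 5982 genes compared over 28 clusters, *N* was most like *lncRNA:CR31044* (r = 0.96), *Magi* and *Sin3A*, and *Dl* most like *rols* (0.95), *ed* and *N*. *Ser* was most like *hid* (0.95), *ft* and *grn*, and *fng* most like *CG7702* (0.97), *dally* and *Egfr*. *kuz* was most like *Haspin* (0.99), *Parp* and *CG41378*, *mam* most like *msi* (0.97), *sbb* and *RhoGAP19D*, and *numb* most like *lig* (0.91), *yrt* and *tws*. *Su(H)* was most like *Pcl* (0.97) and *CG1416*, *H* most like *Chro* (0.96), *spi* and *tral*, and *neur* most like *ewg* (0.94), *E2f1* and *lncRNA:CR45102*. Over the 17 clusters *lncRNA:CR31044* and *Magi* stayed among the 3 genes most like *N* (0.96 and 0.95) and *CG7702* the gene most like *fng* (0.95), while *spdo* was second to *neur* (0.82, after *ktub* at 0.85).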

How the data were processed

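Nuclear RNA of 8 pools of larvae was measured by droplet sequencing with a 3′ kit. Per the labels and the methods of the study, the authors counted UMIs with Cell Ranger (7.1.0, build BDGP6), subtracted ambient RNA with DecontX, removed doublets with DoubletFinder (no caller was run again), joined libraries with Harmony and clustered the nuclei with the Leiden method. The deposited matrix holds the resulting expected counts, of which 13.8% of the values above 0 are under 0.5. A second deposited table gives the cluster of each nucleus. A gene was found in a nucleus when its corrected count was above 0. A lower level can therefore also reflect the subtraction.

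Expected counts were summed per library and group of nuclei (at least 10 nuclei) and rounded to whole numbers. They were tested with edgeR 4.0.16 (glmQLFit and glmQLFTest, TMM size factors, filterByExpr) and Benjamini-Hochberg adjustment in R 4.3.3 (limma 3.58.1), with DESeq2 1.42.0 as an alternative. The test was tested on simulated data with known changes. Tables, exact permutation tests and figures used Python 3.11.15 with scipy 1.17.1, numpy 2.4.6, matplotlib 3.10.9 and pandas 2.3.3. Levels were compared on log2(CPM + 10). UMIs mark molecules, and nuclei were thinned to 300 UMIs for shares. Positions come from the BDGP6.54 annotation of Ensembl, where *Dl* was matched by a synonym.

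The sums compared come from the same library. Over the 6 comparisons of clusters sums of 1 library deviated together with a median correlation of 0.04 to 0.19, against -0.05 to -0.02 for sums of different libraries, and the fit with the library as a block is an alternative. Alternatives also changed the size factors, the filters on genes, nuclei and barcodes and the libraries included.

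The members, the 6 lists of other pathway genes (50 genes) and the comparisons were chosen with earlier results of these data known. All members are named in each comparison, of each list at most 3 called genes per direction, and for each member the 3 genes of the most similar pattern among those with a mean of at least 50 CPM in a cluster. Of these similar genes, 1 is not reported here. The proteomic data of the study were not analysed here.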

Additional observations from a re-analysis of the deposited data

How the results depend on the processing

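Over all members and comparisons, 480 of 512 values with 1 library left out and 431 of 468 values under other settings kept their direction and their side of the thresholds. With 1 library left out, 48 to 61 members by cluster were higher and 145 to 151 lower. The members called were 5 to 5 in discs against neurons, 5 to 5 in the eye disc, 6 to 6 in myoblasts, 6 to 7 in neuron cluster 25, 1 to 3 in stem cells and 1 to 3 in trachea (1 without replicate 5 or without replicate 8). In stem cells 3 were called without replicate 3, 2 with DESeq2, with at least 30 nuclei or with the replicate block, and 4 without the filter on low counts, in place of 1. With 17 clusters, 30 were higher and 56 lower in place of 52 and 150. Co-detection passed in 7 tests at 500 UMIs and 13 without thinning. The replicate block changed the calls given beside the results (*Dl* in stem cells, 1.58, and *Su(H)* in neuron cluster 25) and no other call in the 6 comparisons of clusters.

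Signs turned only for log2 fold changes that passed in neither fit. *N* in stem cells (-0.0155) became 0.0144 with DESeq2 size factors, 0.0168 with DESeq2, 0.395 without the filter, 0.521 with the block, 0.0448 with barcodes of 1 library and 0.326 with at least 30 nuclei, and *numb* there (-0.0382) became 0.000775, 0.0161, 0.367, 0.14, 0.0974 and 0.268 in the same order. *kuz* in trachea (-0.0132) became 0.0384 and 0.0364 with these DESeq2 settings, 0.0291 with nuclei of at least 200 genes and 0.072 with barcodes of 1 library. Without the filter *H* in discs became 0.00804, *neur* -0.0708 in the eye disc and -0.0121 in myoblasts, and *numb* -0.0118 in trachea. With 1 library left out, values ranged from -0.0949 to 0.0171 for *H* in discs, -0.189 to 0.324 for *N* and -0.23 to 0.307 for *numb* in stem cells, -0.0565 to 0.148 for *neur* in the eye disc and -0.0276 to 0.0855 for *kuz* in trachea. The cause of these changes was not tested. Sparse counts limit *Su(H)* and *H*, which did not pass the filter in 2 comparisons.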
